A study of Mus musculus with 8 samples.

Results

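Cd69, the transporter gene Spns2 and 7 further genes of sphingosine 1-phosphate (S1P) signalling were followed through 8 RNA sequencing libraries of mouse LSK cells, the Lineage- Sca-1+ c-Kit+ cells of the marrow, among which blood stem cells and early progenitors are found. The 9 genes, chosen by symbol from the 23284 in the files, were Cd69, the receptor genes S1pr1, S1pr2 and S1pr4, Spns2, the kinase genes Sphk1 and Sphk2, the lyase gene Sgpl1 and the phosphatase gene Sgpp1. The set was drawn up after Cd69 and Spns2 had been seen to differ in these same libraries. Their levels and fold changes below are therefore a description, with no p-value attached to any of the 9, and a gene is said to be called only to place it among all genes measured. All 9 passed the filter on low values (at least 1 FPKM in at least 2 libraries, where FPKM is a fragment count scaled for library size and for transcript length). For Sphk1 this rested on 1 glucose and 1 glucose with lipid library.

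All libraries came from male C57BL/6 mice aged 12 to 13 weeks that were fasted for over 14 hours before each morning injection, injected intravenously for 7 days and killed on day 8. The glucose group received 2 g/kg glucose (2 libraries, replicates 1 and 2). The glucose with lipid group received the same dose together with a 20% lipid emulsion at 6 ml/kg (2 libraries, replicates 1 and 2). Controls received PBS, as the pairs H/I (samples H and I, replicates 1 and 2) and J/K (samples J and K, replicates 3 and 4). The labels give each treatment its own PBS mice without saying which. PBS H/I were set against glucose with lipid because they share sample letters and a tag in the column names, and PBS J/K were set against glucose by elimination, so this assignment is an inference from names. Each library was made from approximately 10000 sorted cells, and the labels do not say whether these came from 1 mouse or a pool. The spread between replicates is therefore only that between these libraries.

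S1P is made inside cells from sphingosine by the sphingosine kinases, is degraded by a lyase or returned to sphingosine by phosphatases, and leaves cells through dedicated transporters. It is abundant in blood and lymph and scarce within tissues, and cells that carry S1P receptors, lymphocytes above all, follow this gradient out of lymphoid organs. CD69, a C-type lectin-like membrane protein that lymphocytes show early after activation, binds the receptor S1PR1 and takes it off the cell surface, while the transcription factor KLF2 drives S1pr1 transcription in T cells. Haematopoietic progenitors also use S1P receptors when they move between marrow, blood and lymph.

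Promoter sequence from RefSeq (GRCm38.p6) was matched for 7 of the 9 genes, S1pr2, S1pr4, Spns2, Sphk1, Sphk2, Sgpl1 and Sgpp1. Each window runs from 250 bases before a RefSeq start to 50 after it, 300 bases in all, and Sphk1 and Sphk2 have several. Of the motifs searched on both strands, those of the immediate early factors are shown. The AP-1 motif TGANTCA was present in 7.81% of 32851 promoter windows of all genes, and the cyclic AMP response element TGACGTCA, which CREB factors bind, in 1.79%. Neither contains the other. Windows are printed 5′ to 3′ on the gene's strand, which is the minus strand for all 3, with the cyclic AMP response element in capitals. Spns2 is shown because its level varied most between groups of libraries among the well-expressed genes of the set, and S1pr2 and Sphk2 because theirs were the only windows of the set with the response element.
Spns2, chr11:72474978-72475277: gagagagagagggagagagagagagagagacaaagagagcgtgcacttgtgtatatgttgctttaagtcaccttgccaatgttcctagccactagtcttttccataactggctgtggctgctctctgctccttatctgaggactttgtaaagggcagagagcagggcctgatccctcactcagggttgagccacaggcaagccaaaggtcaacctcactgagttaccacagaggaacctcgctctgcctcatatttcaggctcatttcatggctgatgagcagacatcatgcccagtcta
S1pr2, chr9:20976744-20977043: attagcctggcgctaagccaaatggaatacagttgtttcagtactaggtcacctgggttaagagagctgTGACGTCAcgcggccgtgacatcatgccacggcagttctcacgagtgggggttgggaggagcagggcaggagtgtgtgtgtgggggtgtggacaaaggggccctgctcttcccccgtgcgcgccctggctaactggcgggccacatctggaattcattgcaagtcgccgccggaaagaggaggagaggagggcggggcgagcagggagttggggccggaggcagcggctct
Sphk2, chr7:45717953-45718252: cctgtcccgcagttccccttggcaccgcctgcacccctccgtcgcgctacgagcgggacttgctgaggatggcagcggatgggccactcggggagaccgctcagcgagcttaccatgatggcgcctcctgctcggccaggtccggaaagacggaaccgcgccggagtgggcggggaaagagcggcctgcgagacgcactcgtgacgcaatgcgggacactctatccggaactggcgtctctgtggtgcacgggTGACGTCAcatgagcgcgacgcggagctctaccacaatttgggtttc
The Spns2 window follows a RefSeq start that lies 14877 bases inside the gene as GENCODE vM21 draws it, so it is not the window of the outermost start. It held neither motif. The S1pr2 window and 1 of the 2 Sphk2 windows each held 1 response element, and an AP-1 motif stood in 2 overlapping Sphk1 windows. The windows of S1pr4, Sgpl1 and Sgpp1 held neither. A match describes letters in these windows and is not evidence of binding.

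All 12 LSK markers, among them Kit, Ly6a and Cd34, were above 0 in every library, with summed FPKM from 1665 to 2120. In units of 1000000 fragments, depth was estimated at 5.87 to 8.53, at which 1 fragment on a 2 kb transcript is worth 0.0586 to 0.0851 FPKM. Replicate 1 of glucose with lipid stood apart. Its 10 neutrophil markers summed to 65414 FPKM, against 143 to 450 in the other 7 libraries, and its 8 macrophage and monocyte markers to 5237, against 380 to 519. Its 9 erythroid markers summed to 2253 FPKM (278 to 1223 in the others) and its 8 B and plasma cell markers to 192 (40.7 to 72.6), although the sort excluded lineage-positive cells. The sums of T and NK cell markers (432 FPKM, 332 to 477 in the others) and endothelial markers (83.8 FPKM, 64.5 to 108) lay within the range of the others. Most of the endothelial sum was Tie1, Emcn, Pecam1 and Tek, which were present in every library. Nkg7 alone, high in every library, made 407 FPKM of the T and NK cell sum. Cd3e, Cd3d and Cd3g stood at 3.77, 3.72 and 4.74 FPKM, against at most 0.606, 0.632 and 0.894 FPKM in the others. Cd8a, Gzma, Klrb1c and Ncr1 were also highest in this library, while Nkg7, Cd4 and Gzmb were within the range of the others. The log2 difference of glucose with lipid from PBS H/I is given with and without this library for each of the 9 genes.

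Cd69 was by far the most abundant of the 9 transcripts. Its level was higher in every treated library than in every PBS library, as in 3.55% of all genes tested. It stood at 373 and 311 FPKM after glucose, against 108 and 126 FPKM in PBS J/K. After glucose with lipid it stood at 271 and 318 FPKM, against 156 and 138 FPKM in PBS H/I. The gap between the lowest treated and the highest PBS library was thus wider than the spread within either, and the 2 treated groups overlapped each other. The 4 treated libraries averaged 318 ± 42.3 FPKM and the 4 PBS libraries 132 ± 19.9 FPKM (SD, n = 4 each). Ranked among all genes of its own library, Cd69 lay between position 186 and position 1147.

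On the log2(FPKM + 1) scale, on which changes of low genes are understated, Cd69 differed by 1.53 ± 0.14 (SE) between glucose and PBS J/K, and by 1.0 ± 0.14 between glucose with lipid and PBS H/I. The ratios of mean FPKM were 2.92 for glucose and 2.01 for glucose with lipid. Across all 8 libraries, with the control pair as a block, the difference was 1.27 ± 0.13. Cd69 was among the genes called over all genes by limma after glucose, where 0.0922% of 11931 genes were called higher, and in the comparison of all treated with all PBS libraries, where 0.268% were called higher. It was not among the 0.0587% called higher after glucose with lipid, and its 2 treatment effects differed by -0.54 ± 0.20, which was not called either. Since the gene was picked for these differences, nothing is read from its place in those counts. With the control pairs exchanged, Cd69 was higher by 1.21 for glucose, against PBS H/I, and by 1.32 for glucose with lipid, against PBS J/K, so that the order of both effects turned round, and both were called. The call after glucose held in 14 of 17 alternatives and ended without glucose replicate 1 (1.40), without PBS replicate 3 (1.42) and without the mean-variance trend. Leaving out glucose replicate 2 ended that over all 8 libraries, at 1.27. Without the library that held neutrophil transcripts, the value for glucose with lipid was again not called, at 1.12. Of 18 alternatives it was called in 2, the exchanged controls and the fit without replicate 2 of glucose with lipid, at 0.88.

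PBS H/I also lay above PBS J/K in Cd69, as in 24.4% of all genes. The difference was 0.32 ± 0.14, with no treatment behind it. The order of groups by mean FPKM was glucose at 342 ± 44.4, glucose with lipid at 294 ± 33.8, PBS H/I at 147 ± 12.7 and PBS J/K at 117 ± 12.8 (SD, n = 2 each). Of the neighbours in that order, only the glucose and glucose with lipid libraries overlapped. On GRCm38 Cd69 lies at chr6:129267325-129275436 on the minus strand and overlaps no other annotated gene. The lectin genes around it were low, with Clec2d at 0.599 to 3.41 FPKM. Clec12a was at 4.64 to 12.8 FPKM except for 58.2 FPKM in replicate 1 of glucose with lipid, where Cd69 had its lowest treated value.

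**Figure D1:**
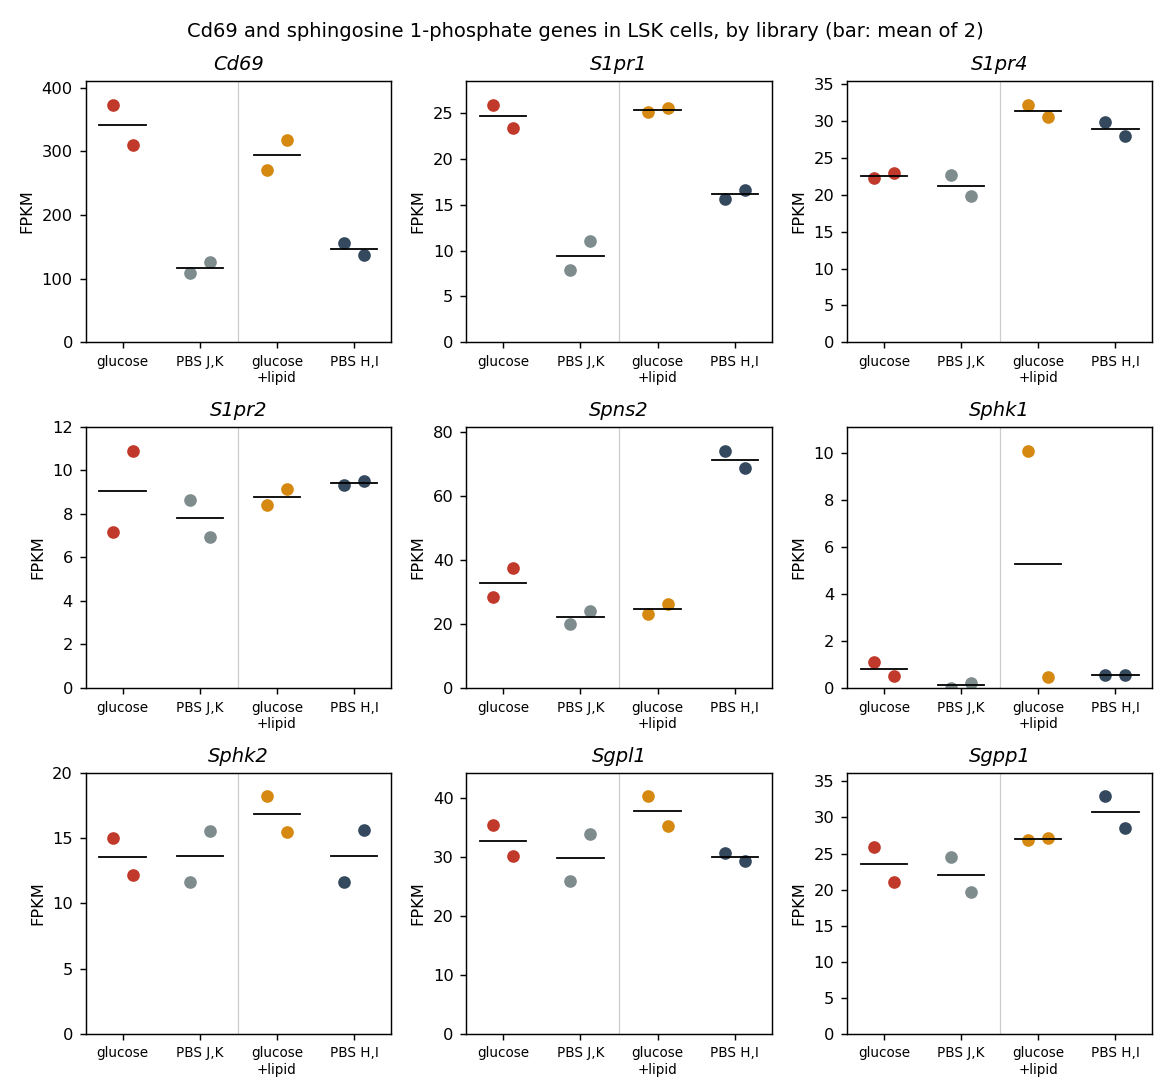
FPKM of each of the 9 genes (vertical axes, linear and starting at 0) in each library; points are libraries, bars are means of 2, and each treated group stands left of its PBS pair. Cd69 and S1pr1 are higher in each of the 4 treated than in any of the 4 PBS libraries, Spns2 is highest in PBS H/I, and the Sphk1 mean of glucose with lipid rests on 1 library at 10.1 FPKM.

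S1pr1, the receptor that CD69 takes off the cell surface and the chief receptor for egress of lymphocytes, showed the same ordering as Cd69 at a lower level. It stood at 25.9 and 23.4 FPKM after glucose, against 7.84 and 11.0 FPKM in PBS J/K. After glucose with lipid it stood at 25.1 and 25.6 FPKM, against 15.6 and 16.6 FPKM in PBS H/I. All 4 treated libraries again lay above all 4 PBS libraries, a separation that 3.55% of the 11931 genes showed in this direction. Cd69 and S1pr1 were the only 2 of the 9 genes with it. Both belong to the set by choice, so their count is not read against that share.

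The 4 treated libraries were alike in S1pr1, at 24.98 ± 1.13 FPKM, while the 4 PBS libraries varied more, at 12.8 ± 4.11 FPKM (SD, n = 4 each). The log2 difference was 1.31 ± 0.17 (SE) for glucose against PBS J/K and 0.62 ± 0.17 for glucose with lipid against PBS H/I. Neither was called, nor was the value of 0.97 ± 0.16 over all 8 libraries, although that for glucose was called in 6 of 17 alternatives. PBS H/I themselves exceeded PBS J/K by 0.73 ± 0.17. With the control pairs exchanged, glucose gave 0.58 and glucose with lipid 1.35, and 1.35 was called. In the order of groups the overlapping pair was glucose with lipid and glucose. Both PBS pairs stood below them, and PBS H/I lay above PBS J/K, as in 24.4% of all genes. S1pr1 lies at chr3:115710433-115715072 on the minus strand. Its nearest expressed neighbour Dph5, an enzyme gene of diphthamide synthesis, varied only from 45.1 to 59.4 FPKM.

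The other receptors of the set did not separate treated from PBS libraries. S1pr4, a receptor of blood and lymphoid cells, was measured at 22.3 and 22.9 FPKM after glucose, against 22.7 and 19.8 FPKM in PBS J/K. It was measured at 32.2 and 30.6 FPKM after glucose with lipid, against 29.96 and 28.0 FPKM in PBS H/I. The libraries of glucose with lipid lay just above PBS H/I, as in 22.2% of all genes, and PBS H/I lay above PBS J/K, as in 24.4%. These 4 libraries all lay above those of glucose and PBS J/K, a separation whose share over all genes was not computed. Its log2 differences were 0.09 ± 0.12 for glucose and 0.11 ± 0.12 for glucose with lipid, against 0.43 ± 0.12 between PBS H/I and PBS J/K. None was called, and with the pairs exchanged the differences were -0.34 for glucose and 0.54 for glucose with lipid.

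S1pr2, which couples mainly to the G12 and G13 proteins and restrains migration, had the lowest mean FPKM of the 3 receptors in every group. It had 7.17 and 10.9 FPKM after glucose, against 8.66 and 6.93 FPKM in PBS J/K. It had 8.42 and 9.14 FPKM after glucose with lipid, against 9.35 and 9.53 FPKM in PBS H/I. Every library but PBS K lay within the range of the glucose replicates, and the log2 differences of 0.17 ± 0.21 for glucose and -0.10 ± 0.21 for glucose with lipid were within 1 standard error of 0.

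Spns2, which carries S1P out of cells and is best known from endothelium, where it supplies lymph, showed a pattern unlike that of Cd69 and S1pr1. It stood at 28.4 and 37.4 FPKM after glucose, against 19.9 and 24.1 FPKM in PBS J/K. It stood at 23.2 and 26.2 FPKM after glucose with lipid, against 74.2 and 68.6 FPKM in PBS H/I. PBS H/I stood far above the other 6 libraries, which lay between 19.9 and 37.4 FPKM. The glucose libraries lay above their controls, as in 22.3% of all genes, and the glucose with lipid libraries below theirs, as in 21.8%. PBS H/I lay above PBS J/K, as in 24.4%.

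The log2 difference of Spns2 was 0.55 ± 0.16 (SE) for glucose, which was not called, and -1.49 ± 0.16 for glucose with lipid, which was among the 0.0168% of genes called lower. Between PBS H/I and PBS J/K it was 1.66 ± 0.16, among the 0.0419% called higher, so the difference between the PBS pairs was as large as that between treated and control. The ratio of mean FPKM was 0.346 for glucose with lipid over PBS H/I, 1.12 for the same libraries over PBS J/K, and 3.24 for PBS H/I over PBS J/K. With the pairs exchanged the log2 difference was 0.16 for glucose with lipid and -1.10 for glucose, and with all 4 PBS libraries as controls it was -0.66 and -0.28. The sign of either treatment difference therefore turned on which PBS mice it was set against. Without replicate 1 of glucose with lipid the value was -1.41 and without PBS replicate 1 or 2 it was -1.44 or -1.55, none of them called, and the call held in 9 of 18 alternatives. The call between the PBS pairs ended without any one of the 4 PBS libraries, at 1.53 to 1.79. Since Spns2 was picked for its differences in these libraries, nothing is read from its calls.

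Over all 8 libraries the Spns2 difference was -0.47 ± 0.36, not called, with 28.8 ± 6.12 FPKM in treated and 46.7 ± 28.6 FPKM in PBS libraries (SD, n = 4 each). The group means were 32.9 ± 6.37 FPKM for glucose, 24.7 ± 2.10 FPKM for glucose with lipid, 71.4 ± 3.95 FPKM for PBS H/I and 22.01 ± 2.98 FPKM for PBS J/K (SD, n = 2 each). Of neighbours in their order, from PBS H/I through glucose and glucose with lipid down to PBS J/K, only glucose with lipid and PBS J/K overlapped. Spns2 lies at chr11:72451638-72489904 on the minus strand, 5015 bases from its paralogue Spns3 on the same strand. Spns3 did not share the high level of PBS H/I, with 32.0 and 47.6 FPKM after glucose and 32.0 and 26.7 FPKM after glucose with lipid, against 39.1 and 33.0 FPKM in PBS H/I and 35.9 and 39.8 FPKM in PBS J/K.

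At its end Spns2 shares 131 exonic bases, 3.21% of its exon length, with Mybbp1a on the other strand, and the labels do not say whether reads were assigned by strand. Mybbp1a stood at 117 and 97.4 FPKM in PBS H/I, below the 178 and 126 FPKM of PBS J/K, so its level did not run with that of Spns2. Endothelial markers summed to 84.4 and 92.6 FPKM in PBS H/I, within the 64.5 to 108 FPKM of all libraries. Most of that sum was Tie1, Emcn, Pecam1 and Tek (26.1, 25.2, 21.1 and 8.10 FPKM in PBS H), which were present in every library. Cdh5 was at 0 FPKM in both PBS H/I libraries. The sum therefore cannot tell whether endothelial cells were present, and their part in the Spns2 level was not tested. In such bulk samples fewer cells of a type that carries a transcript and less transcript per cell cannot be told apart.

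**Figure D2:**
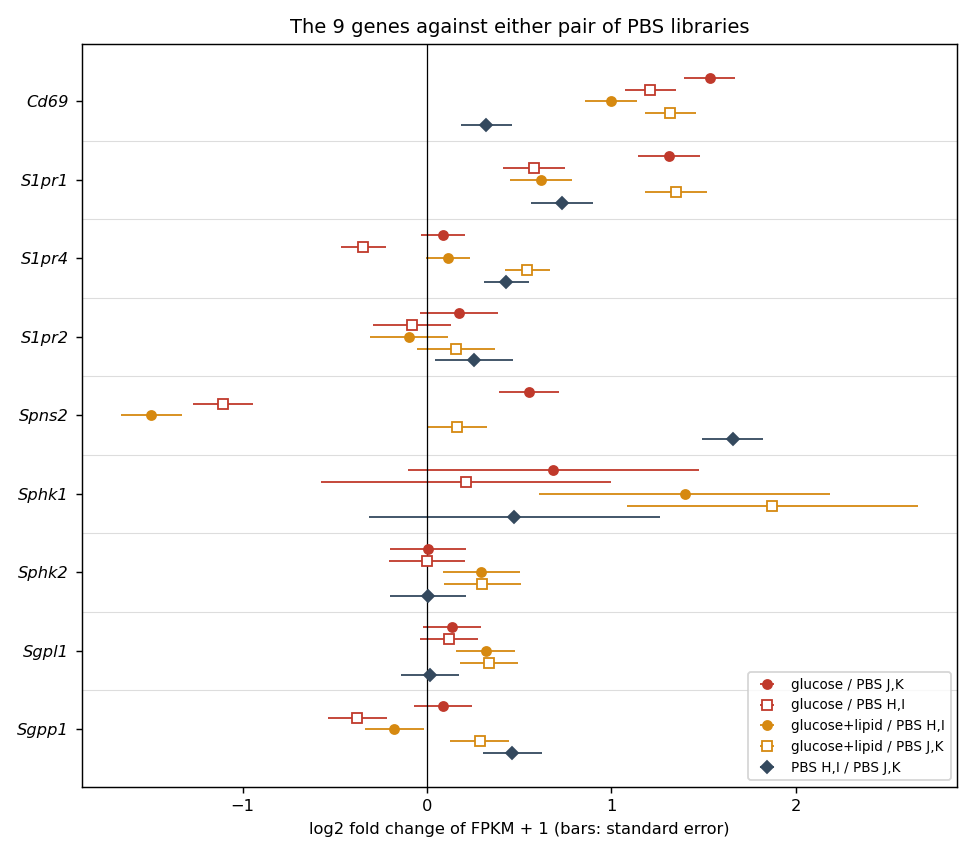
Log2 fold change of FPKM + 1 with its standard error (horizontal axis) for the 9 genes against either PBS pair; filled circles use the controls inferred from names, open squares the other pair, and diamonds compare PBS H/I with PBS J/K. Cd69 and S1pr1 lie right of 0 against both pairs, while Spns2 lies at -1.49 for glucose with lipid against PBS H/I and at 0.16 against PBS J/K.

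Of the kinases that make S1P, Sphk2, the form found in nucleus and mitochondria as well as cytoplasm, was the one well expressed in LSK cells. It had 14.99 and 12.2 FPKM after glucose, against 11.6 and 15.6 FPKM in PBS J/K. It had 18.2 and 15.5 FPKM after glucose with lipid, against 11.7 and 15.6 FPKM in PBS H/I. Treated and control libraries overlapped in both comparisons, and the log2 differences were 0.01 ± 0.21 for glucose and 0.29 ± 0.21 for glucose with lipid. Sphk2 shares 539 exonic bases (12.96% of its exon length) with Dbp and 373 (8.97%) with Rpl18, both on the other strand, so its counts may hold reads of either.

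Sphk1, the cytoplasmic kinase induced by many stimuli, was low apart from 1 library. It had 1.10 and 0.512 FPKM after glucose, against 0 and 0.225 FPKM in PBS J/K. It had 10.1 and 0.479 FPKM after glucose with lipid, against 0.533 and 0.540 FPKM in PBS H/I. The value of 10.1 FPKM belongs to the library with the neutrophil and macrophage transcripts. The part of those cells in it was not tested. The log2 difference for glucose with lipid was 1.40 ± 0.79 with that library and -0.06 without it, and 0.69 ± 0.79 for glucose, and none of these was called. Without replicate 2 of glucose with lipid, when only the library with the neutrophil transcripts is left in that group, it was 2.85 and was called.

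The enzymes that remove S1P were at moderate levels. Sgpl1, the lyase that cleaves S1P irreversibly, had 35.4 and 30.1 FPKM after glucose, against 25.9 and 33.8 FPKM in PBS J/K. It had 40.3 and 35.2 FPKM after glucose with lipid, against 30.6 and 29.3 FPKM in PBS H/I. The glucose libraries overlapped their controls and the glucose with lipid libraries lay above theirs, as in 22.2% of all genes, with log2 differences of 0.14 ± 0.16 and 0.32 ± 0.16 that were not called. Sgpp1, a phosphatase that returns S1P to sphingosine, had 25.9 and 21.1 FPKM after glucose, against 24.5 and 19.6 FPKM in PBS J/K. It had 26.8 and 27.1 FPKM after glucose with lipid, against 32.9 and 28.5 FPKM in PBS H/I. Its log2 differences of 0.09 ± 0.16 for glucose and -0.18 ± 0.16 for glucose with lipid were not called and changed sign with the control pairs exchanged, to -0.38 and 0.29. The glucose with lipid libraries lay below PBS H/I, as in 21.8% of all genes, and PBS H/I lay above PBS J/K, as in 24.4%. The difference between the PBS pairs was 0.46 ± 0.16, more than either treatment difference and not called.

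Set side by side, all 9 genes lay above 0 in the glucose comparison, with a median log2 difference of 0.17, and 6 of 9 in the glucose with lipid comparison, with a median of 0.30. All 9 also lay above 0 for PBS H/I against PBS J/K, where the median was 0.43. Over all genes tested, 49.9%, 51.7% and 50.1% lay above 0 in these comparisons, and the medians were 0, 0.01 and 0. The glucose comparison shares the J and K libraries with that between the PBS pairs, and the glucose with lipid comparison shares H and I with it, so none of these counts is a separate observation. Without replicate 1 of glucose with lipid, the log2 differences of that group were 0.63 for S1pr1, 0.08 for S1pr4, -0.04 for S1pr2, 0.19 for Sphk2, 0.22 for Sgpl1 and -0.17 for Sgpp1, none of them called.

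The wider pathway was described with a list of 63 genes, chosen with earlier results of these data known. It covered ceramide synthesis and turnover, other S1P receptors, carriers and phosphatases, receptor coupling, and marrow retention. Because of that choice, the calls and p-values of its genes are a description. Of the 63 genes, 55 were in the files and 47 were tested. None was called after glucose (0.101% of all genes called), after glucose with lipid (0.0754%), between the PBS pairs (0.0503%) or for the difference of effects (0.0168%). At an unadjusted p under 0.05 there were 6 after glucose, 4 after glucose with lipid, 5 between the PBS pairs and 3 for the difference, beside 1772, 1407, 2058 and 1456 of all 11931 genes, which are larger shares. Over all 8 libraries 1 of the 47 rose and none fell, where 0.268% of all genes were called, each of them higher. The median log2 difference of the list was 0.07 after glucose (32 of 47 above 0) and 0.04 after glucose with lipid (25 of 47 above 0), beside 0 and 0.01 over all genes.

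The gene that rose was Klf2, the transcription factor known to drive S1pr1 in T cells. It stood at 27.5 and 31.0 FPKM after glucose, against 7.49 and 16.0 FPKM in PBS J/K. It stood at 61.6 and 57.2 FPKM after glucose with lipid, against 17.5 and 18.6 FPKM in PBS H/I. Every treated library lay above every PBS library, as in 3.55% of all genes. The glucose with lipid libraries lay above the glucose libraries, a separation whose share over all genes was not computed. Over all 8 libraries Klf2 rose by 1.5 ± 0.20 (SE, adjusted p = 0.0204 in limma over all genes). Glucose alone gave 1.33 ± 0.28 (adjusted p = 0.176) and glucose with lipid 1.67 ± 0.28 (adjusted p = 0.126), neither of which passed. PBS H/I exceeded PBS J/K by 0.66 ± 0.28 (adjusted p = 0.282). The call over all 8 libraries held in 7 of 15 alternatives. It ended without glucose replicate 1 or 2, glucose with lipid replicate 2 or PBS replicate 1 or 2, at values from 1.45 to 1.57, and with no filter, no trend or no block. For glucose the value was 0.83 without PBS replicate 3, 1.83 and called without PBS replicate 4, and 0.67 against PBS H/I. For glucose with lipid it was 2.33 and called against PBS J/K, called at an unmoved 1.67 without PBS replicate 3 or 4, and 1.61 and not called without replicate 1.

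In ceramide and sphingomyelin turnover, the upstream source of sphingosine, no gene of 11 passed in any comparison. Ugcg, which turns ceramide into glucosylceramide, had 26.9 and 26.4 FPKM after glucose, against 16.4 and 17.0 FPKM in PBS J/K. It had 20.1 and 17.6 FPKM after glucose with lipid, against 24.6 and 26.1 FPKM in PBS H/I. The log2 differences were 0.64 ± 0.12 for glucose (adjusted p = 0.159), -0.41 ± 0.12 for glucose with lipid and -1.06 ± 0.17 for the difference of effects (adjusted p = 0.238). As with Spns2, the PBS pairs differed, by 0.57 ± 0.12 (adjusted p = 0.121), and against the other pair the values were 0.07 for glucose and 0.16 for glucose with lipid. Acer2, a Golgi ceramidase that releases sphingosine, had a log2 difference of 0.52 ± 0.18 after glucose (adjusted p = 0.273). Degs1, the desaturase that completes ceramide synthesis, stood at 85.6 FPKM in replicate 1 of glucose with lipid and at 41.0 to 50.4 FPKM in the other 7 libraries.

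Among the remaining receptors and exporters, none of 7 tested genes passed in any comparison. S1pr3, a receptor better known from vessel wall cells, stood at 2.82 and 1.92 FPKM after glucose with lipid, against 5.5 and 4.10 FPKM in PBS H/I, a log2 difference of -0.79 ± 0.32 (adjusted p = 0.399). S1pr5 was at or near 0, at 0 to 0.132 FPKM in 7 libraries and 0.811 FPKM in replicate 1 of glucose with lipid. Mfsd2b, the S1P exporter of red cells and platelets, which was named after its values were seen, was at 6.62 FPKM in that library and at 0.358 to 3.00 FPKM in the others. Sphk1, Degs1, S1pr5 and Mfsd2b thus all had their highest value in the library with neutrophil, macrophage and erythroid transcripts, and the part of those cells in these values was not tested.

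Genes of marrow retention and homing showed no call among 8. Ccr7, a chemokine receptor of lymph node homing, had a log2 difference of 0.77 ± 0.53 after glucose with lipid (adjusted p = 0.619), which was -0.15 without replicate 1 and 1.69 and called without replicate 2 of that group. Itga4, a subunit of the integrin that holds progenitors to stroma, had -0.83 ± 0.26 for the difference of effects (adjusted p = 0.330) and 0.64 ± 0.18 between the PBS pairs (adjusted p = 0.169). The transcription factor gene Klf2 was listed among the 14 genes of receptor coupling and trafficking and was the only one of them called. The 13 others, none of them called, lay between -0.24 and 0.40 in the glucose comparison.

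**Figure D3:**
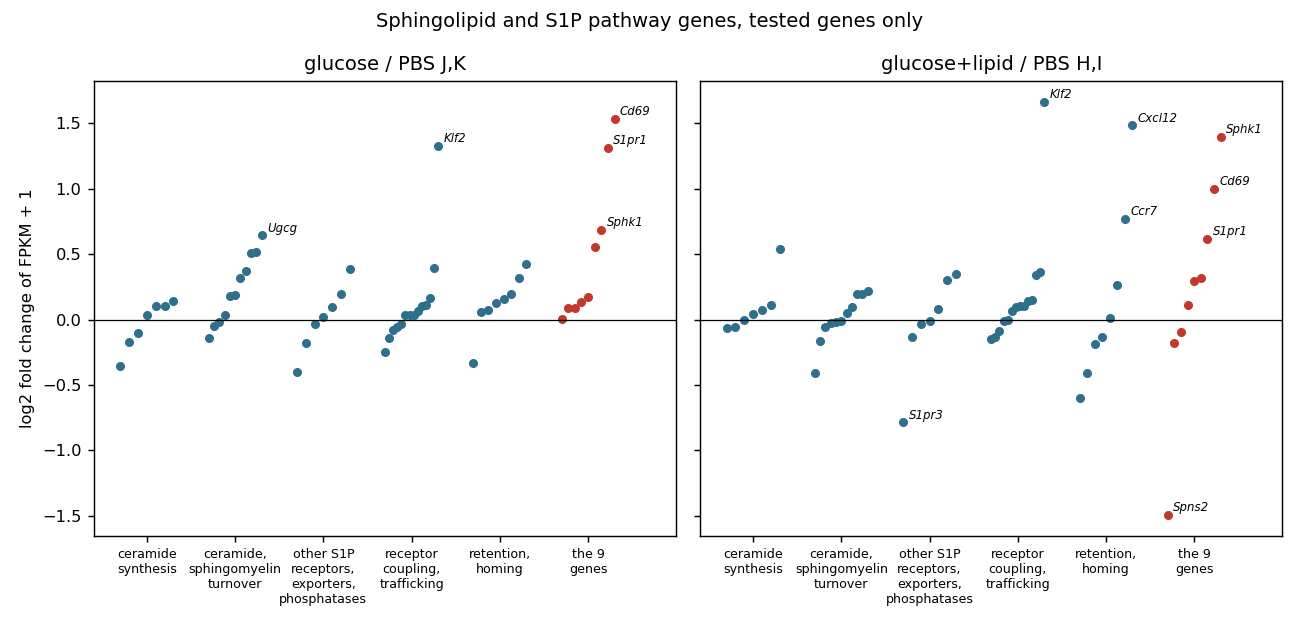
Log2 fold change of FPKM + 1 for the 47 tested pathway genes in 5 groups and for the 9 genes of the set (red), for glucose against PBS J/K and for glucose with lipid against PBS H/I; each point is a gene, sorted within its group. Klf2 has the highest value of the pathway genes in both panels, 1.33 and 1.67, and most other points lie near 0.

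Cd69 is an early activation gene, and the list of 24 such genes was set beside it, 19 of them tested. The list was chosen with earlier results of these data known. Its calls and its median are therefore a description and are not read against those of all genes. Over all 8 libraries 5 of 19 rose and none fell, where 0.268% of all genes were called higher. These were Nr4a1, an orphan nuclear receptor (2.80 ± 0.22, adjusted p = 0.00146), the AP-1 subunit genes Fos (1.38 ± 0.16, adjusted p = 0.0115) and Junb (0.96 ± 0.11, adjusted p = 0.0103), the regulator Ier2 (0.80 ± 0.10, adjusted p = 0.0191) and the phosphatase gene Dusp1 (0.88 ± 0.13, adjusted p = 0.0323). The median log2 difference of the 19 was 0.82, beside -0.01 over all genes. In the separate comparisons only Nr4a1 passed, with 3.12 ± 0.28 after glucose (adjusted p = 0.00698) and 2.49 ± 0.28 after glucose with lipid (adjusted p = 0.0381), the last of which held in 9 of 18 alternatives and ended without replicate 1 of glucose with lipid, at 2.43.

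Not every early activation gene moved with Cd69. Tnf, a cytokine gene, stood at 6.11 and 5.12 FPKM after glucose and 6.14 and 8.15 FPKM after glucose with lipid, against 7.54 and 7.44 FPKM in PBS H/I and 4.70 and 6.25 FPKM in PBS J/K. Myc and Il2ra, named after their values were seen, differed from Cd69 as well. Myc, a growth regulator, was at 260 and 274 FPKM after glucose and 227 and 244 FPKM after glucose with lipid, against 274 and 256 FPKM in PBS H/I and 335 and 308 FPKM in PBS J/K. Il2ra, another activation marker of lymphocytes, was at or below 0.220 FPKM in every library. Of the calls over all 8 libraries, Nr4a1 held in all 15 alternatives tried, Junb in 14, Fos in 10, Ier2 in 8 and Dusp1 in 5. Junb ended without glucose replicate 2, at 1.0. Fos ended without either glucose or PBS H/I library, at 1.32 to 1.41, and Ier2 without any of these or PBS replicate 4, at 0.78 to 0.83. Dusp1 ended with each library left out except PBS replicate 4, at 0.78 to 0.91.

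Likeness of pattern was measured by Pearson's r of log2(FPKM + 1) over the 8 libraries, for 9158 genes with a mean of at least 3 FPKM. The genes most like Cd69 were Nr4a1 (r = 0.985), the cell cycle inhibitor gene Cdkn1a (0.985), the ERK phosphatase gene Dusp5 (0.984), the kinase gene Plk2 (0.973) and the kinase gene Sik1 (0.972). All 5 were higher in each of the 4 treated than in any of the 4 PBS libraries, as Cd69 was. S1pr1 had r = 0.928 with Cd69 and Klf2 0.818, whereas Spns2 had -0.16, S1pr2 0.094 and Sgpp1 0.015. The 8 points are the same libraries for every gene and fall into treated and PBS libraries, so any gene that separates these has a high r.

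The genes most like Spns2 were a different group, Bbs2 (r = 0.965), Chpt1 (0.962), Plekha3 (0.961), Fbxo45 (0.960) and Ube3c (0.956). Each was highest in PBS H/I, which their choice by r with Spns2 largely fixed. Plekha3 stood at 4.77 and 6.47 FPKM after glucose and 3.59 and 2.2 FPKM after glucose with lipid, against 13.0 and 12.1 FPKM in PBS H/I and 2.04 and 3.15 FPKM in PBS J/K. By their own levels, Cd69 and Spns2 followed separate divisions of the same 8 libraries. Cd69 followed that of treated from PBS, and Spns2 that of 1 PBS pair from all others.

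**Figure D4:**
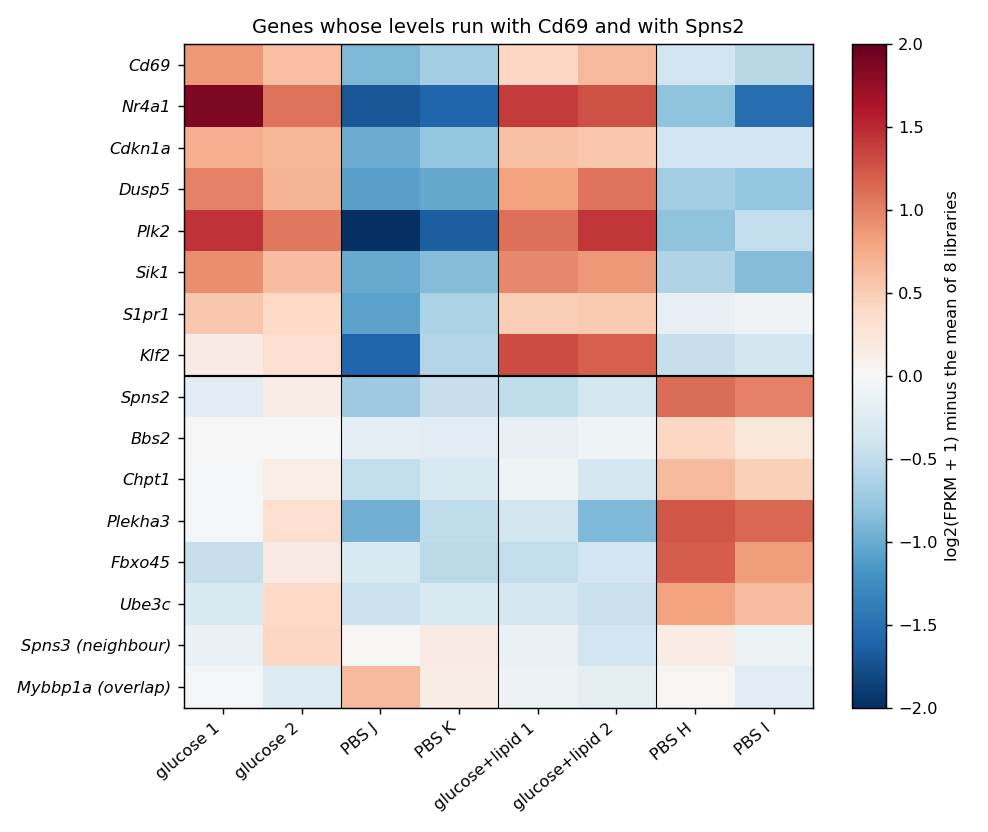
Log2(FPKM + 1) minus its mean over the 8 libraries (colour) for Cd69, the 5 genes most like it, S1pr1 and Klf2 (above the line) and for Spns2, the 5 genes most like it, its neighbour Spns3 and the overlapping gene Mybbp1a (below). The upper genes are above their mean in the 4 treated libraries, Spns2 and the genes most like it are highest in PBS H/I, and Spns3 and Mybbp1a do not share that pattern.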

How the data were processed

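RNA sequencing values of 8 LSK libraries were analysed. Per the labels, the kits were SMART-Seq HT for cDNA and Nextera XT for sequencing libraries. The submitters' processing notes name Cuffnorm 2.2.1, SAMtools 1.0, Bowtie2 2.2.3, TopHat2 2.0.13 and the genome mm10. The values the authors deposited are FPKM, a unit inferred from their range and from Cuffnorm, as no header names it. For the annotation, strand setting and library scaling, the sources used here say nothing. Fragment counts were not used here, so depth was estimated from the smallest steps between values of 84 genes, and no counting interval was computed.

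Values were transformed to log2(FPKM + 1). The 11931 genes that reached 1 FPKM in 2 or more libraries were tested in limma 3.58.1 under R 4.3.3, with a mean-variance trend, 4 groups in 1 fit, 4 residual and 3.73 prior degrees of freedom. The fit of treated against PBS libraries had the control pair as a block. All p-values are 2-sided, with Benjamini-Hochberg adjustment over all genes within each of 5 comparisons, and a gene is called at an adjusted p under 0.05. P-values measure only the spread between these libraries. Figures were drawn with matplotlib 3.10.9 under Python 3.11.15, and the fit was tested on simulated data.

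The 9 genes, the pathway, early activation and marker lists and the tests were chosen with earlier results of these data known. Named beside the 9 were pathway and early activation genes that passed, the 3 per comparison with the largest log2 difference and a mean of at least 3 FPKM, and the 5 genes most like Cd69 and Spns2 by correlation, leaving out predicted genes, small RNAs and pseudogenes. Positions are from GENCODE vM21 on GRCm38, which is mm10. Alternatives tried were a pseudocount of 0.1 FPKM, no filter or one of 3 FPKM, median centring, quantile normalisation, no trend, exchanged, pooled or fewer controls, a replicate block, and each library left out.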

Additional observations from a re-analysis of the deposited data

Results flagged for a closer look

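Set against the controls inferred from names, the 2 treatment differences of Spns2 had opposite signs. Both glucose libraries lay above PBS J/K (28.4 and 37.4 FPKM, against 19.9 and 24.1 FPKM), and both glucose with lipid libraries lay below PBS H/I (23.2 and 26.2 FPKM, against 74.2 and 68.6 FPKM). The effect of glucose with lipid minus that of glucose was -2.05 ± 0.23 (SE) on the log2 scale. In the limma fit over all genes this difference was not called, and it was called without replicate 2 of glucose with lipid, at -2.13. The gene was chosen for its differences in these libraries, so no p-value is attached to it. The value includes the difference between the PBS pairs, as PBS H/I exceeded PBS J/K by 1.66, and treatment and control pair cannot be told apart in it. Against the same PBS pair the 2 treatments had the same sign. Against PBS J/K the log2 differences were 0.55 for glucose and 0.16 for glucose with lipid. Against PBS H/I they were -1.10 and -1.49.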

How the results depend on the processing

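For the 9 genes, 645 of 706 values under alternatives moved by less than the pooled SD between replicates, 60 moved further and 1 called value changed sign. The last was Spns2 in glucose with lipid, at 0.16 with exchanged controls. Counts of called genes moved most with the libraries used. After glucose (12 called) they were 19 with a pseudocount of 0.1 FPKM, 7 with all 4 PBS libraries as controls and 8 to 32 with each library left out, 32 without either glucose with lipid library and 29 without PBS replicate 4. After glucose with lipid (9 called) they were 3 with no filter, 28 with exchanged controls, 4 with the 4 compared libraries alone and 3 to 271 with each library left out, the 271 without replicate 2, when the group is the library with neutrophil transcripts alone and is assumed to vary like the other groups. Between the PBS pairs (6 called) they were 2 with no filter, 17 with the 4 compared libraries alone and 3 to 15 with each library left out. Over all 8 libraries (32 called) they were 17 with no filter, 20 with no trend and 8 to 33 with each library left out, the 8 without glucose replicate 2. For the difference of effects (2 called) they were 2 to 141 with each library left out, the 141 without glucose with lipid replicate 2. The causes were not tested.

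With a replicate block, 2 genes were called in glucose with lipid against PBS H/I, and Spns2 was no longer called. Deviations of equally numbered libraries correlated at 0.066 over 11931 genes, so with only 2 such pairs the numbers were not taken to pair mice. Median centring and quantile normalisation changed the direction of no called gene of the 9. Depth limits S1pr5, Sphk1 in PBS J/K and other genes near 0, and 2 libraries per group limit every comparison.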

Other observations

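Levels of 3 more genes on which S1P or chemokine signalling draws follow, named after their values were seen and not standing for their lists. Gnai2, the inhibitory G protein through which S1PR1 signals, lay between 309 and 365 FPKM in all 8 libraries, with log2 differences of 0.04 ± 0.08 after glucose (SE, adjusted p = 0.875) and 0.15 ± 0.08 after glucose with lipid (adjusted p = 0.525). The receptor kinase gene Grk2, listed under its older symbol Adrbk1, lay between 25.7 and 32.6 FPKM. Cxcr4, the chemokine receptor that holds progenitors in marrow, lay between 13.0 and 18.4 FPKM, with differences of 0.16 ± 0.17 after glucose (adjusted p = 0.691) and -0.19 ± 0.17 after glucose with lipid (adjusted p = 0.701). Neither Gnai2 nor Cxcr4 passed, and whether 2 libraries per group could detect differences of this size was not tested.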
